A study of Mus musculus with 6 samples.

Results

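Intermediate filaments are the rope-like part of the cytoskeleton, and 8 genes that encode them were followed here in mouse embryonic stem cells. They were the simple epithelial keratin genes Krt7, Krt8, Krt18 and Krt19, the vimentin gene Vim, the desmin gene Des and the lamin genes Lmna and Lmnb1. The array carried 18 probe sets that named 1 of these genes and no other, and they were 8 of 18193 genes named in that way. The genes were chosen by their signals in this same comparison, with its earlier results known, so their own differences between the groups are described here and not tested.

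RNA came from R1 cells, a mouse embryonic stem cell line grown undifferentiated in serum medium with leukaemia inhibitory factor. For 3 arrays the cells expressed a stable short hairpin RNA (shRNA) that targets Pcl2 (gene symbol Mtf2), and for the other 3 a mismatch version of it, the control. Both groups had been stably transfected, the Pcl2 shRNA samples came from 1 clone, and the 3 arrays of a group were biological replicates per the labels. The shRNA and the clone therefore cannot be told apart, and the spread between arrays is that between cultures. Pcl2 associates with the Polycomb complex that places the repressive methyl mark on histone H3, and the comparison asks which transcripts differ when it is lowered.

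Keratins assemble only in pairs of a type I and a type II protein. Krt8 (type II) and Krt18 (type I) form the first such pair of the embryo, where they mark the trophectoderm, and persist in simple epithelia. Vimentin and desmin are type III proteins that can assemble alone, vimentin in mesenchymal and many cultured cells and desmin in muscle. Lamins line the inside of the nuclear envelope: B-type lamins are made by nearly all cells, whereas A-type lamins are known to be low in pluripotent cells and to increase on differentiation.

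Krt7, Krt8 and Krt18 lie on chromosome 15 and Krt19 on chromosome 11. In the GRCm38.p6 gene table Krt8 and Krt18, a type II and a type I gene, are neighbours with 2 long noncoding RNA models and 0 protein-coding genes between them. Promoter windows were found for 6 of the 8 genes in the RefSeq table of that build. Those of the chromosome 15 keratins follow with that of Vim. Krt19, which was lower too, had no such window. Each runs 5′ to 3′ from 250 bases before the annotated start to 10 bases into the transcript, and capitals mark matches to the motifs named after them.

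Krt8, GRCm38.p6 chr15:102004333-102004592, minus strand: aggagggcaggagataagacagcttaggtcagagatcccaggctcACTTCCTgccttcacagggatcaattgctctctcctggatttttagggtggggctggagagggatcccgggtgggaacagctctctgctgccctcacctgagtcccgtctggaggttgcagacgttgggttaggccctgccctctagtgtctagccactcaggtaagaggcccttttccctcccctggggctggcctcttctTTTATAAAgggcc
Krt18, GRCm38.p6 chr15:102027966-102028225, plus strand: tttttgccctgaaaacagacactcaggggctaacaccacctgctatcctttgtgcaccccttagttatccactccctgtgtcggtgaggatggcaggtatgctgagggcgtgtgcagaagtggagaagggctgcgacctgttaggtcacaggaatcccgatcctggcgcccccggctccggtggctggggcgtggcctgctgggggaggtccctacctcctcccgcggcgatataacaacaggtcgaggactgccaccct
Krt7, GRCm38.p6 chr15:101412153-101412412, plus strand: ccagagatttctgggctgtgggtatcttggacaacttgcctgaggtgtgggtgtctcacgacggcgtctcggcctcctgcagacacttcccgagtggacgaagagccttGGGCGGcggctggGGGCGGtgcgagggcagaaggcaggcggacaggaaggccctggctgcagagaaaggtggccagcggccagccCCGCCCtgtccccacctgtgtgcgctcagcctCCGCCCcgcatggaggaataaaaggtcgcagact
Vim, GRCm38.p6 chr2:13574061-13574320, plus strand: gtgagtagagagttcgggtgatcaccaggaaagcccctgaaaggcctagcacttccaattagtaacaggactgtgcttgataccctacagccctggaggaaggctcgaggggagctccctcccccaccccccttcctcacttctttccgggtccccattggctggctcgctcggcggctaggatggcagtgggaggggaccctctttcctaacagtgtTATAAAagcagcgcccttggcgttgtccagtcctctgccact

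On both strands the search covered a TATA box (TATAAA), a GC box (GGGCGG), an Ets motif (CCGGAAG or AGGAAGT), an AP-1 motif (TGANTCA), a TEAD motif (GGAATG) and the CArG box bound by Srf. In Krt8 an Ets motif began 205 bases before the start and overlapping TATA boxes on the opposite strands covered the start itself. Krt7 held 4 GC boxes, Vim a TATA box that began 32 bases before the start, and Krt18 none of the 6 motifs. Of 32841 windows of the same length, 12.7% held the TATA box, 33.5% the GC box and 15% an Ets motif. The AP-1, TEAD and CArG letters occurred in none of the members' windows and in 7.03%, 13.2% and 1.5% of all windows. The windows also differed in CpG dinucleotides, of which Krt8 had 3, Krt18 12, Krt7 17 and Vim 8, against a median of 6 over all windows. Set against base composition, the observed over expected CpG ratio was 0.14 in Krt8, 0.50 in Krt18, 0.61 in Krt7 and 0.36 in Vim, and 20.4%, 59.1%, 66.4% and 48.6% of all windows had a lower ratio. The neighbouring Krt8 and Krt18 thus had promoters of unlike CpG content.

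Signals below are the authors' MAS5 values, a brightness per probe set on a linear scale, given as mean ± SD over n = 3 arrays per group. They are not comparable between probe sets. Changes are differences of log2(signal + 7), Pcl2 shRNA minus control, with the standard error (SE) of the limma fit. A gene is said to pass where limma's Benjamini-Hochberg adjusted p over all 13094 tested genes was below 0.05. Background is a signal of 20.3, the highest of 27 bacterial control probe sets without a spike. The number of arrays limits the precision. The target itself, Mtf2, gave 1951, 1513 and 1704 on control arrays 1, 2 and 3 and 1048, 1167 and 869.6 on shRNA arrays 1, 2 and 3. No shRNA array reached the lowest control array (log2 fold change -0.74, SE 0.17, limma adjusted p = 0.0157). That call was lost on leaving out control replicate 1 (adjusted p = 0.0519) or Pcl2 shRNA replicate 3 (0.0574). These values are of the brightest probe set of Mtf2. With the mean of its probe sets the difference was smaller (log2 -0.53, limma adjusted p = 0.0305).

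The keratins separated the groups and the other 4 genes did so little or not at all. Krt8 had a signal of 4329, 2386 and 3935 on control arrays 1, 2 and 3 and of 129, 165 and 147 on shRNA arrays 1, 2 and 3. Its partner Krt18 had 3842, 1799.98 and 4099 in the control and 131, 106 and 147 with the shRNA. All shRNA arrays of both genes lay far below all control arrays and well above background. The mean of Krt8 went from 3550 ± 1027 to 147 ± 17.8, which is 4.14% of the control mean, and that of Krt18 from 3247 ± 1260 to 128 ± 20.9, which is 3.95%. On the log2 scale the differences were -4.49 (SE 0.22) for Krt8 and -4.51 (SE 0.29) for Krt18, folds of 22.5 and 22.8. These were the 4th and 3rd lowest values of the 13094 genes.

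The type II and type I partner thus had differences of the same size within their errors. Against the common control mean each shRNA array gave nearly the same one, while differences between arrays of the same number, given below, varied more. Taken from the control mean, the shRNA arrays 1, 2 and 3 stood at -4.66, -4.32 and -4.48 for Krt8 and at -4.47, -4.76 and -4.31 for Krt18. Krt8 had a further 2 probe sets, both marked in their IDs as open to cross-hybridisation, and they gave -4.95 (SE 0.28) and -4.83 (SE 0.32). On these the signal went from 2779 ± 1043 to 78.5 ± 13.1 and from 2482 ± 1102 to 73.1 ± 5.68.

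Krt19 is a type I keratin without a tail domain that also pairs with type II keratins of simple epithelia. Its signals were 648, 287 and 739.7 on the control arrays and 58.0, 25.0 and 43.9 on the shRNA arrays, so that its highest shRNA value lay well under its lowest control value. The mean went from 558 ± 239 to 42.3 ± 16.5, or 7.58% of control, a log2 difference of -3.47 (SE 0.36). It was the 24th lowest value of the genes tested.

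Krt7, a type II keratin of ducts and other simple epithelia, was dim. Control arrays 1, 2 and 3 gave 135, 50.1 and 198 and the shRNA arrays 20.0, 27.7 and 42.3, the first of which lies at background. The groups did not overlap, but control array 2 and shRNA array 3 were close to each other. The mean went from 128 ± 74.0 to 30.0 ± 11.3, with a log2 difference of -1.72 (SE 0.43). Krt7 no longer passed without control replicate 1 (log2 -1.59), control replicate 3 (-1.33), Pcl2 shRNA replicate 1 (-1.52) or Pcl2 shRNA replicate 2 (-1.70).

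**Figure D1:**
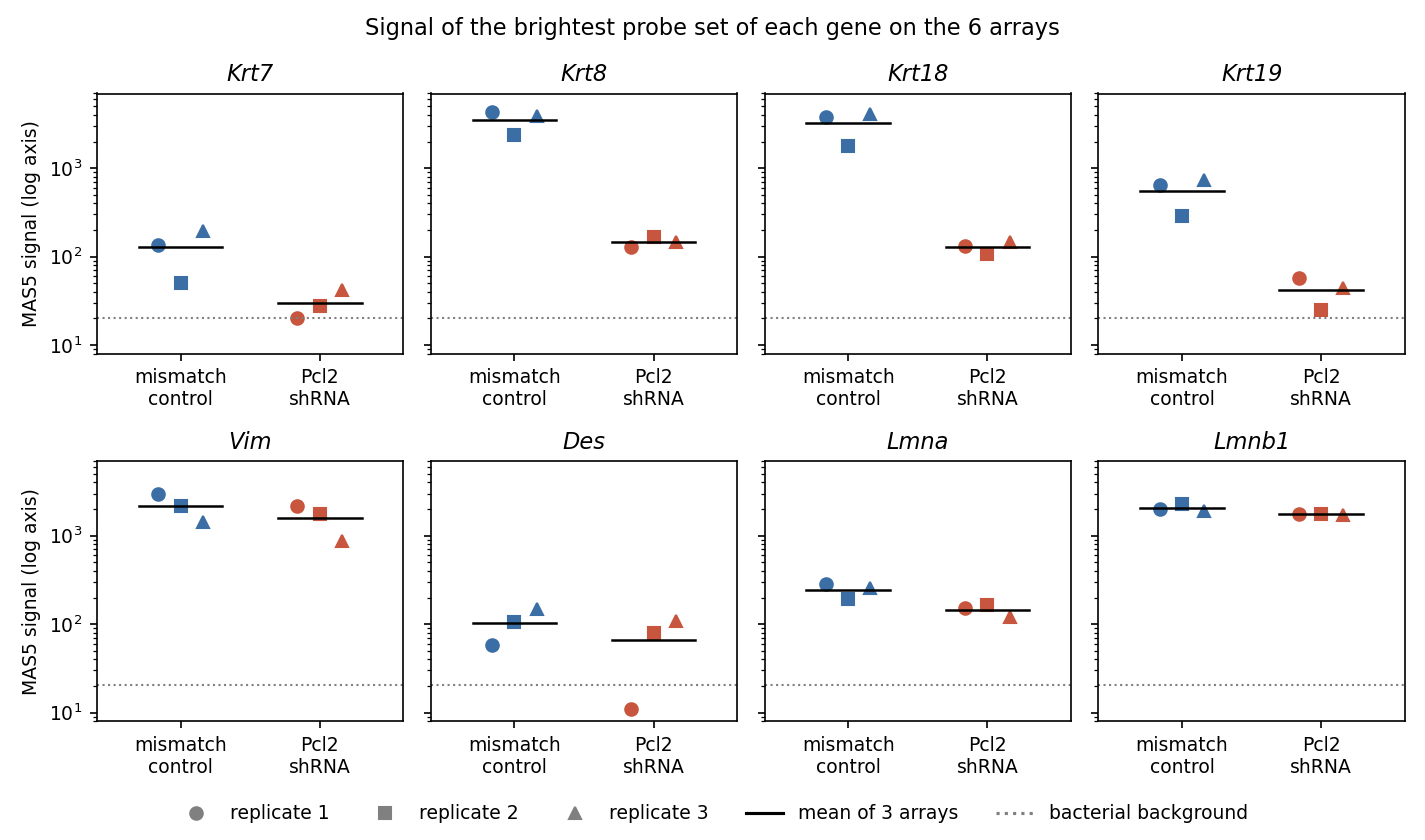
Signal of the brightest probe set of each of the 8 genes on the 6 arrays, on a log axis. Points are arrays, with the symbol giving the replicate number, lines are means of 3 arrays and the dotted line is the bacterial background of 20.3. The control and shRNA arrays are far apart for Krt8, Krt18 and Krt19, closer for Krt7, and overlap for Vim and Des.

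Vimentin was bright in both groups. Vim gave 2974, 2148 and 1447 on control arrays 1, 2 and 3 and 2165, 1769.95 and 865 on shRNA arrays 1, 2 and 3. The groups overlapped, and in both array 1 was the highest and array 3 the lowest. The means of 2190 ± 764 and 1599.9 ± 666 differed by log2 -0.49 (SE 0.34, 95% interval -1.24 to 0.26). Without control replicate 1 the difference was -0.24 and without Pcl2 shRNA replicate 3 it was -0.10, while without control replicate 3 or Pcl2 shRNA replicate 1 it was -0.76. The other probe sets of Vim gave -0.26 (SE 0.47) and -0.43 (SE 0.47).

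Vim shared its highest array with markers of fibroblasts, mesenchymal cells in which vimentin is abundant. Its lowest array depended on the group and the probe set. The summed signal of 14 fibroblast markers was 1641 on control array 1 against 546 and 686 on control arrays 2 and 3, and 1145 on shRNA array 1 against 443 and 459 on shRNA arrays 2 and 3. The sum was thus lowest on array 2 of each group, with the shRNA only just. The brightest probe set of Vim was lowest on array 3 of each group. Its other 2 probe sets were lowest on array 2 in the control (1020 and 632, against 1159 and 747 on array 3). With the shRNA they were lowest on array 3. Of the 14 markers, 8 were highest on array 1 of both groups, as were 15.4% of all tested genes. On their brightest probe sets the proteoglycan genes Lum and Dcn were at or below background on all 6 arrays. With every probe set counted, this held for 1 of the 14 markers. Between the groups, 0 of the 10 tested fibroblast markers passed by limma, with 1 at an unadjusted p under 0.05. All 10 had a lower sign, and their median was log2 -0.35, against 0.02 over all tested genes. The 1 was Col1a1 (log2 -1.83, SE 0.78, limma adjusted p with the replicate block 0.00391), whose other probe set gave -0.63. With the replicate block, described below, 2 were lower. Over all tested genes 12.6% passed, and 13.8% were lower with the block. Col1a2 gave 168 ± 60.8 and 124 ± 74.9 and Thy1, whose sign turned without control replicate 1 (log2 0.34), 136 ± 89.4 and 110.2 ± 17.98. The part of such cells in the Vim signal was not tested, and more cells of a type cannot be told apart from more RNA per cell in these samples.

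Desmin, the filament protein of muscle, was dim and variable. Des gave 58.4, 106 and 148 on control arrays 1, 2 and 3 and 10.9, 79.2 and 109 on shRNA arrays 1, 2 and 3. The groups overlapped, and array 1 was the lowest in each. The difference of log2 -0.90 (SE 0.60, 95% interval -2.23 to 0.44) was -0.07 without Pcl2 shRNA replicate 1, whose signal was below background, and -1.42 without Pcl2 shRNA replicate 3. It was -1.24 without control replicate 1, -1.20 without Pcl2 shRNA replicate 2, -0.84 without control replicate 2 and -0.61 without control replicate 3. The second Des probe set gave 31.2 ± 7.61 and 29.5 ± 6.56, a difference of -0.06 (SE 0.26).

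Among 12 muscle markers the actin genes Acta1 (459 ± 215 to 29.2 ± 6.47, log2 -3.58, SE 0.33, limma adjusted p = 0.000152) and Actc1 (146 ± 88.3 to 30.4 ± 6.36, log2 -1.89, SE 0.36, limma adjusted p = 0.00669) fell. The other 7 tested did not pass, so that 22.2% of the 9 tested passed, beside 12.6% of all tested genes. The median of the 9 was log2 0.18, and only 3 had a lower sign. With the replicate block 2 were lower and 1 higher, the titin gene Ttn (log2 0.94, limma adjusted p = 0.0141). The myogenic factor Myf5 was at or below background on every array. The summed signal of the muscle list was 588 to 1226 in the control and 368 to 431 with the shRNA. Much of the control sums came from Acta1 (668, 239 and 471 on control arrays 1, 2 and 3) and Actc1 (246, 111 and 80.0). The part of muscle cells in the Des values was not tested.

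Lamin values were closer between the groups than those of the keratins. Lmna, which encodes lamins A and C, gave 285, 191 and 254 on control arrays 1, 2 and 3 and 150.5, 167 and 121 on shRNA arrays 1, 2 and 3. All shRNA arrays lay below all control arrays, the nearest being control array 2 and shRNA array 2. The means of 244 ± 47.8 and 146 ± 23.0 differed by log2 -0.70 (SE 0.21, 95% interval -1.16 to -0.24), a fold of 1.63. Lmna did not pass, and it passed without control replicate 2 (log2 -0.86).

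Lmna had 5 probe sets, and they did not all separate the groups. The next 2 in brightness gave log2 -0.55 (SE 0.24) and -0.79 (SE 0.34) with overlapping groups. The remaining 2 were below the signal filter, with means of 14.5 ± 1.04 and 11.3 ± 6.11 for one and 7.82 ± 3.93 and 12.0 ± 11.8 for the other. That last one was the only probe set of the 18 with a higher mean in the shRNA arrays on the log2 scale (log2 0.22), and it was above background on 1 array.

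Lmnb1, which encodes the main B-type lamin, was bright and even. It gave 2027, 2271 and 1882 on the control arrays and 1757, 1778 and 1738 on the shRNA arrays. The groups did not overlap, yet the difference was only log2 -0.22 (SE 0.14, 95% interval -0.53 to 0.09), a fold of 1.17. Its other probe set gave -0.26 (SE 0.17) with overlapping groups.

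**Figure D2:**
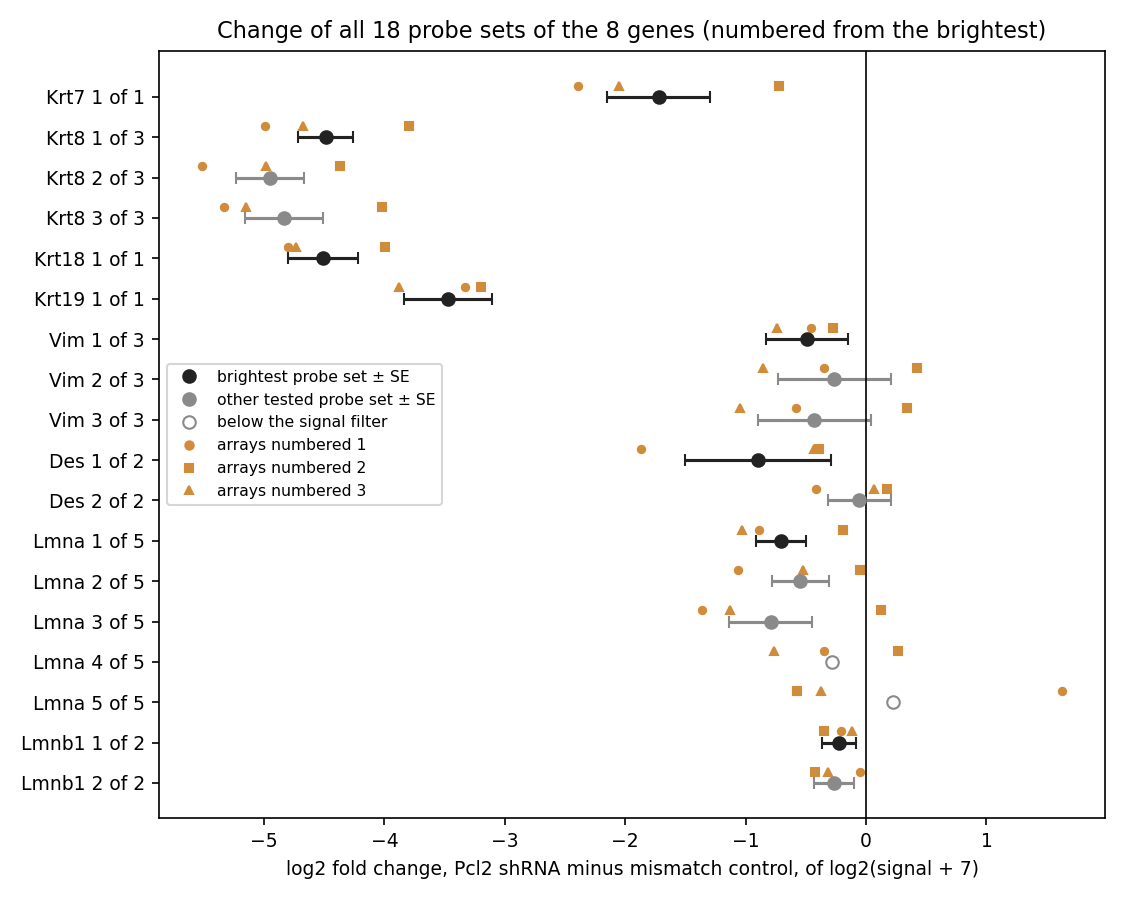
Change of all 18 probe sets of the 8 genes in log2(signal + 7), Pcl2 shRNA minus control. Large points are group differences with SE bars, white points lie below the signal filter, and small symbols are the differences between arrays of the same number. The 6 keratin probe sets lie between -4.95 and -1.72 and those of the other genes between -0.90 and 0.22.

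Of the 8 genes, all of which were tested, 4 passed and were lower (Krt7, Krt8, Krt18 and Krt19), and 0 were higher. Over all tested genes 12.6% passed, 8.15% lower and 4.46% higher. The median difference of the 8 genes was log2 -1.31, against 0.02 over all tested genes. In 6 of the 8 all shRNA arrays lay below all control arrays, as in 16.7% of tested genes. By probe set, this held for 6 of 6 of the keratins and for 2 of 12 of the others. Since this same comparison was used to pick the genes, nothing is read from these counts.

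In both groups the labels give sample numbers 1 to 3, and samples of the same number deviated together. The numbers were therefore taken as pairs in an alternative fit. Calls, SEs and intervals given without mention of the replicate block come from the fit without pairs. With the number as a replicate block, 7 of the 8 genes passed, all lower, against 23.8% of all tested genes. Vim, Des and Lmna joined the keratins, and Lmnb1 did not pass. The differences between arrays of the same number were smallest in pair 2 for every keratin. For Krt8 they were -4.99, -3.80 and -4.68 in pairs 1, 2 and 3, for Krt18 -4.80, -4.00 and -4.73, for Krt19 -3.33, -3.20 and -3.88, and for Krt7 -2.40, -0.72 and -2.05. All 3 pairs were negative for the brightest probe set of each of the 8 genes, at -0.46, -0.28 and -0.74 for Vim, and the block calls rest on these probe sets. Elsewhere the sign varied: pair 2 was at 0.42 and 0.34 on the other probe sets of Vim and at 0.12 on 1 other tested probe set of Lmna, and the second probe set of Des had -0.41, 0.17 and 0.07.

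Within the control the keratins varied together. Control array 2 was the lowest on all 6 keratin probe sets, at log2 -0.53 from the control mean for Krt8, -0.76 for Krt18, -0.83 for Krt19 and -1.05 for Krt7. The highest control signal was 1.81 times the lowest for Krt8, 2.28 times for Krt18, 2.58 times for Krt19 and 3.94 times for Krt7. Control array 2 was also the lowest control array for 38.8% of all tested genes and for 55.5% of those that passed lower. Among the shRNA arrays, array 2 was the lowest for Krt18, for Krt19 and on the 2 other probe sets of Krt8, the highest on the brightest probe set of Krt8, and in the middle for Krt7. The pattern was not confined to the keratins. For Lmna, control array 2 was the lowest on the brightest probe set, at log2 -0.32 from the control mean, and on some of the others. It was the lowest on 2 of the 3 probe sets of Vim but not its brightest, on 1 of the 2 of Des but not its brightest, and on neither of Lmnb1.

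**Figure D3:**
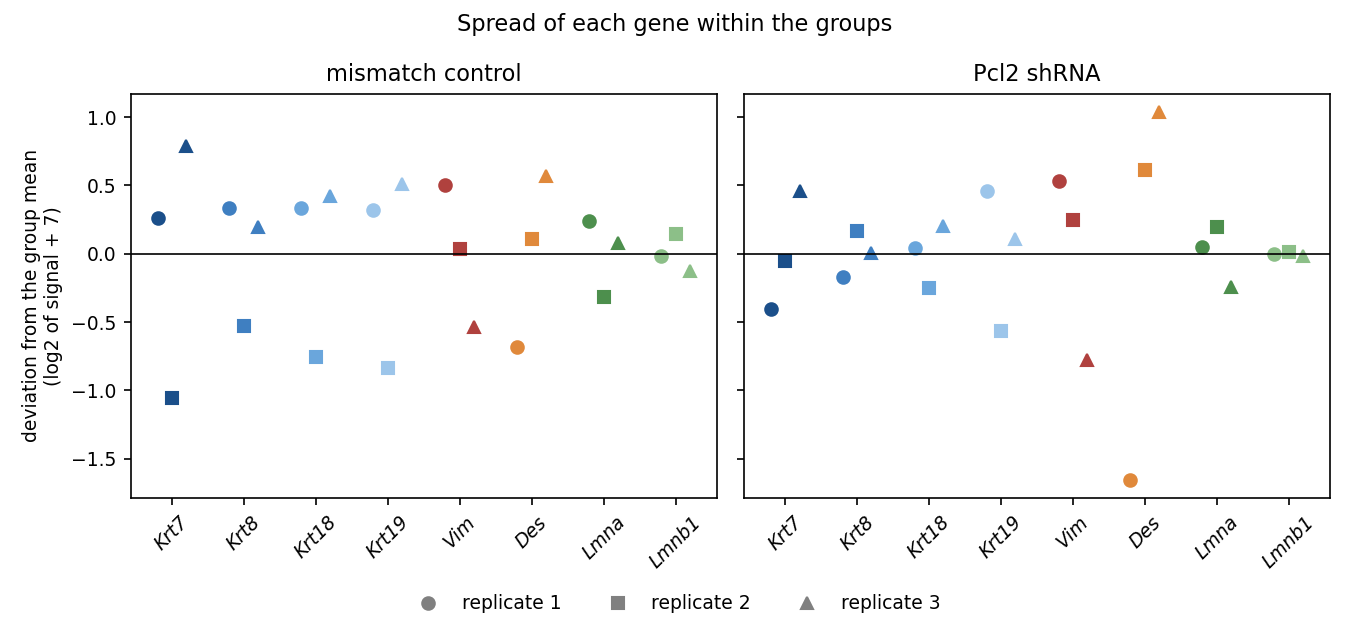
Deviation of each array from its group mean in log2(signal + 7), for the brightest probe set of each of the 8 genes, by replicate number. Control array 2 is at -0.53 to -1.05 for the 4 keratins and at -0.32, also the lowest, for Lmna. Array 3 is the lowest for Vim in both groups, and the points of Lmnb1 lie close to 0.

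The tested genes outside the family whose 6 values, taken from the control mean, lay nearest to those of Krt8 were Igfbp3, which binds insulin-like growth factors (root mean square difference 0.20 log2 units), the Wnt ligand gene Wnt4 (0.24) and the interferon-induced GTPase gene Gbp2b (0.24). Krt18 itself was at 0.25, and Krt19 at 0.84. The same 3 genes were the nearest to Krt18, at 0.25 for Gbp2b, 0.26 for Wnt4 and 0.27 for Igfbp3. Igfbp3 gave 1925 ± 476 and 91.2 ± 2.46. Wnt4 was at or below background on all shRNA arrays and so at least 14.1-fold lower. Nearest to Krt19 were the growth factor gene Igf2 (0.21; 632 ± 298 and 39.9 ± 15.4), the matrix gene Efemp1 (0.28) and Bmp1, a protease that processes procollagen (0.32). Efemp1 was at or below background with the shRNA and at least 7.36-fold lower. All lie in the same comparison that chose the keratins, so this is a description.

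Simple keratins mark the trophectoderm of the blastocyst, and of 8 tested markers of that layer 1 fell and 7 did not pass (1 lower and 1 higher with the replicate block). So 12.5% passed, beside 12.6% of all tested genes, or 23.8% of them with the replicate block. The one that fell was Cdx2, the trophectoderm transcription factor, which gave 145, 29.2 and 97.1 in the control and was at or below background on all shRNA arrays, at least 3.67-fold lower (limma adjusted p = 0.0104). Without control replicate 1, when Cdx2 fell under the signal filter and was not tested, this bound was 2.63-fold, and without control replicate 2 it was 5.85-fold. Another probe set of Cdx2 gave log2 -0.63. The median of the 8 was log2 -0.46, and 7 had a lower sign. Gata3 was at or below background throughout. The summed signal of 10 markers was 919.7 to 1416 in the control and 943 to 1356 with the shRNA, with Tfap2c as its largest term (483 to 611 and 682 to 1004, log2 0.51, limma adjusted p = 0.108). Without Tfap2c the sums were 437 to 805 and 261 to 352 and did not overlap. Tfap2c was the only tested marker with a higher sign and was left out after its values were seen, so nothing is read from this. Of 8 extraembryonic endoderm markers, Dab2 (log2 -1.79, SE 0.24, limma adjusted p = 0.00106), the laminin gene Lamb1 (log2 -0.86, SE 0.16, limma adjusted p = 0.00646) and the collagen gene Col4a1 (log2 -1.15, SE 0.22, limma adjusted p = 0.00731) fell and 5 did not pass. Other probe sets gave -0.63, 0.20 and -0.83 for Lamb1, -0.90, -1.27 and -0.75 for Dab2 and -1.20 for Col4a1. Of the 5 that did not pass, Hnf4a had log2 0.70 (limma adjusted p = 0.105, other probe sets 0.91, 0.72 and 0.15). Gata6 was at 0.03, Gata4 at 0.00, Foxa2 at -0.05 and Amn at -0.40. In all, 37.5% of the 8 passed, and their median was log2 -0.23. That list summed to 1542 to 2148 and 1001 to 1148, with Afp and Ttr at or below background. The 13 embryonic stem cell markers were all above background, and 0 fell. Beside 4.46% of all tested genes, 6 of them (46.2%) rose. They included Klf4 (log2 1.78), Esrrb (1.47), Fgf4 (1.34) and Zfp42 (1.32), all with limma adjusted p of at most 0.00269, and the list summed to 26779 to 33899 in the control and 41469.5 to 53021 with the shRNA. The part of these cell types in the keratin values was not tested.

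Counts of related genes stand beside the shares of all tested genes that passed, 8.15% lower and 4.46% higher, or 13.8% lower and 23.8% in either direction with the replicate block. The tested keratins other than Krt7, Krt8, Krt18 and Krt19 did not pass. The array named 43 of a list of 50, of which 19 were at or below background on every array and 15 were bright enough to be tested. None of the 15 passed by limma (3 had an unadjusted p under 0.05), and the list's median was log2 0.08. The type I keratin Krt42 gave 438 ± 32.0 and 602 ± 34.0 (log2 0.45, SE 0.15, limma adjusted p = 0.0753) on a probe set marked as open to cross-hybridisation. With such probe sets left out, its other probe set gave log2 0.95 and passed (limma adjusted p = 0.0459). The hair keratin Krt81 gave 131 ± 22.6 and 139.6 ± 27.3 (log2 0.08, SE 0.21). Krt81 has close paralogues that probes may share, and its sign turned without control replicate 2 (-0.029) or Pcl2 shRNA replicate 2 (-0.036). With the replicate block Krt42 was higher (limma adjusted p = 0.0289) and the epidermal keratin Krt6a lower (log2 -0.98, limma adjusted p = 0.0259), and other probe sets of Krt6a gave 0.25 and 0.28. Krt6a was named after its value was seen.

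Among 13 tested genes for other intermediate filament proteins, 4 fell, 0 rose and 9 did not pass, with a median of log2 -0.01. The neurofilament gene Nefm gave 188, 111 and 59.7 in the control and was at or below background on all shRNA arrays, at least 5.31-fold lower (limma adjusted p = 0.00113). The light neurofilament gene Nefl went from 1160.5 ± 530 to 296 ± 103 (log2 -1.90, SE 0.35, limma adjusted p = 0.00566). Iffo2, which encodes a filament family orphan, fell by 1.14 on the log2 scale (SE 0.21, limma adjusted p = 0.00624). Nes, the nestin gene of neural progenitors, went from 156 ± 14.7 to 84.6 ± 12.7 (log2 -0.84, SE 0.19, limma adjusted p = 0.0183), and the other 2 probe sets gave log2 -3.47 and -0.89. Nes did not pass when control replicate 1 was left out (limma adjusted p = 0.0682). On leaving out Pcl2 shRNA replicate 1, 2 or 3 the first of those became the brightest, with log2 -3.88 as the largest of these values (without replicate 2). Other neural members did not pass: Prph, the peripherin gene, had log2 -0.96 (SE 0.45, limma adjusted p = 0.216), Gfap of astrocytes -0.01, the internexin gene Ina 0.07 and the heavy neurofilament gene Nefh 0.46. Other probe sets gave -1.49 for Nefl and -0.63 for Iffo2.

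Keratin filaments are anchored to desmosomes through plakins. Of 19 tested genes for linkers and desmosome parts, 5 fell, 0 rose and 14 did not pass, with a median of log2 -0.24. The desmoplakin gene Dsp, which ties keratin to the desmosome, gave 1435, 726 and 1709 in the control and 138, 191.5 and 294 with the shRNA (log2 -2.57, SE 0.33, limma adjusted p = 0.001). The other 2 probe sets of Dsp gave -2.25 and -2.47. Dsc2, a desmosomal cadherin gene, went from 195 ± 124 to 21.4 ± 4.16 (log2 -2.61, SE 0.43, limma adjusted p = 0.00332), and Perp, a desmosomal membrane protein gene, from 758 ± 295 to 204 ± 60.1 (log2 -1.80, SE 0.31, limma adjusted p = 0.0044). Fam83h, whose product helps to organise keratin filaments, fell by 1.06 on the log2 scale (SE 0.20, limma adjusted p = 0.00607), and another probe set gave -0.30. The periplakin gene Ppl fell by 0.78 on the log2 scale (SE 0.23, limma adjusted p = 0.0496) and did not pass in 5 of the 6 fits that leave out 1 array, all but that without control replicate 2 (adjusted p up to 0.16). Control array 2 was the lowest control array in 4 of these 5. Plakoglobin (Jup, log2 -0.24), plakophilin 2 (Pkp2, -0.33), desmoglein 2 (Dsg2, -0.44) and plectin (Plec, -0.54) did not pass, and Plec did with the replicate block (limma adjusted p = 0.0143).

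Of 17 tested genes for proteins that bind, fold, phosphorylate or cleave filament proteins, 2 fell and 15 did not pass, with a median of log2 -0.22. Sfn, the 14-3-3 sigma gene of epithelial cells, whose protein can bind keratins, went from 964 ± 112 to 114 ± 31.1 (log2 -3.03, SE 0.20, limma adjusted p = 3.05e-05). Cryab, a small heat shock protein gene whose product chaperones desmin and vimentin, went from 268 ± 156 to 19.2 ± 12.8 (log2 -3.27, SE 0.50, limma adjusted p = 0.0024). The other probe sets of Cryab gave -3.29 and 0.24. With the replicate block 5 were lower and 1 higher.

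Of 25 tested genes for lamina partners and lamin processing, 1 fell, 1 rose and 23 did not pass, so that 8% passed against 12.6% of all tested genes, with a median of log2 -0.06. The membrane protein gene Tmem43, whose product binds lamins, went from 262 ± 83.8 to 79.0 ± 23.7 (log2 -1.64, SE 0.27, limma adjusted p = 0.00376), while another probe set gave -0.36. Sun1, which joins the lamina to the cytoskeleton through the nuclear envelope, rose from 585 ± 41.1 to 1019 ± 277 (log2 0.76, SE 0.20, limma adjusted p = 0.0311). Sun1 did not pass without control replicate 1 (adjusted p = 0.0872), control replicate 2 (0.0734), Pcl2 shRNA replicate 2 (0.0949) or Pcl2 shRNA replicate 3 (0.094). The B-type lamin receptor gene Lbr (log2 -0.00) and the other B-type lamin gene Lmnb2 (0.14) did not pass. With the replicate block 4 were lower and 1 higher, beside 23.8% of all tested genes, among the lower the emerin gene Emd (log2 -0.51, limma adjusted p = 0.0166) and Zmpste24, the protease that matures lamin A (log2 -0.51, limma adjusted p = 0.019).

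**Figure D4:**
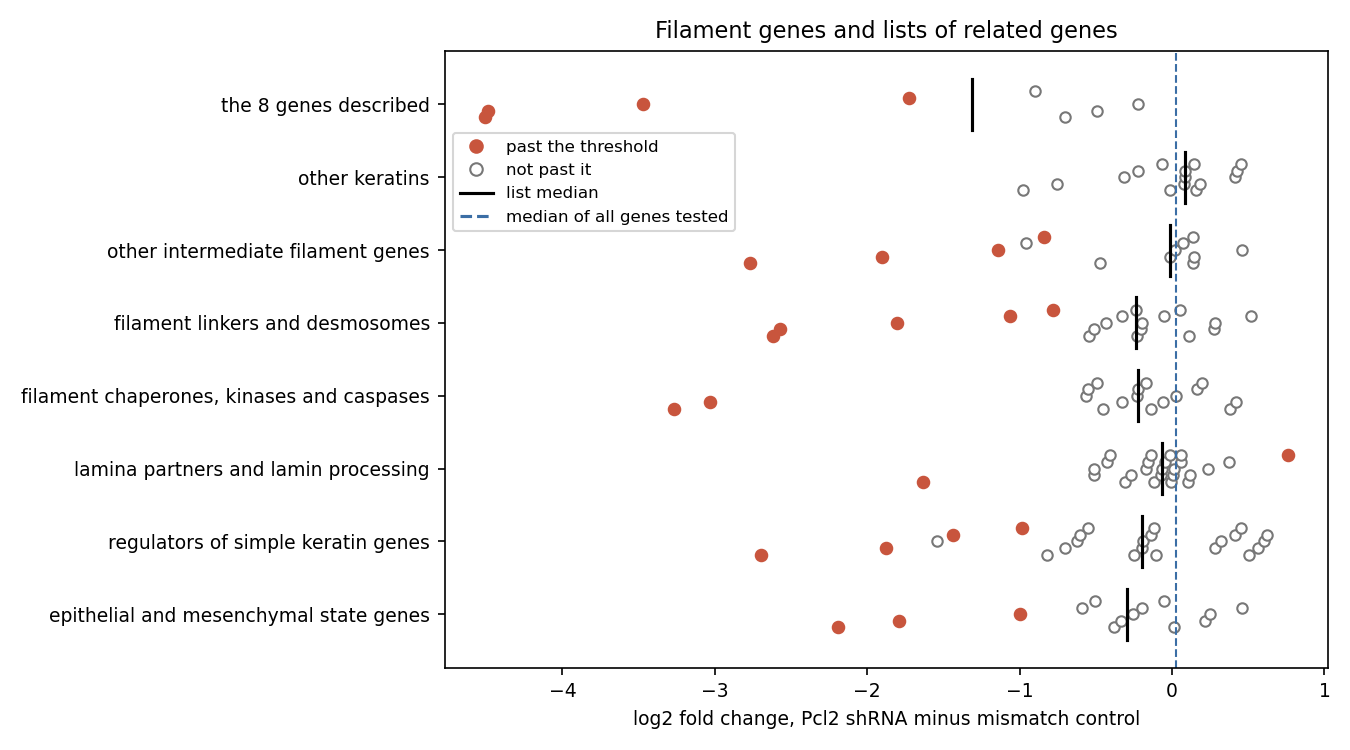
Log2 fold change, Pcl2 shRNA minus control, of the 8 filament genes and of the tested genes of 7 related lists. Filled points passed limma's adjusted threshold, black lines are list medians and the dashed line is the median of all tested genes (0.02). The list medians lie between -0.30 and 0.08, and that of the 8 genes at -1.31.

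Genes for transcription factors known to act on simple keratin promoters, AP-1 among them, included 4 that fell of 24 tested, with 20 that did not pass and a median of log2 -0.20. That is 16.7% of the list, beside 12.6% of all tested genes. All 4 encode AP-1 subunits. The AP-1 genes Jund (log2 -0.55, limma adjusted p = 0.191, another probe set 0.30) and Fosl1 (log2 -1.54, limma adjusted p = 0.0618, another probe set -0.37) did not pass. With the replicate block Jund and Fosl1 were lower (limma adjusted p = 0.0183 and 0.00291). Jun went from 592 ± 143 to 85.3 ± 20.2 (log2 -2.69, SE 0.23, limma adjusted p = 9.93e-05) and Fosl2 from 182 ± 59.1 to 43.1 ± 5.93 (log2 -1.88, SE 0.25, limma adjusted p = 0.00105), with other probe sets at -1.71 for Jun and -2.94 for Fosl2. Lower, too, were Junb (log2 -0.99, SE 0.21, limma adjusted p = 0.0136) and Fos (log2 -1.44, SE 0.38, limma adjusted p = 0.035). Junb did not pass without Pcl2 shRNA replicate 1 (adjusted p = 0.0517), nor Fos without control replicate 2 (0.1), control replicate 3 (0.0828), Pcl2 shRNA replicate 2 (0.0864) or Pcl2 shRNA replicate 3 (0.101). Ets2 (log2 -0.11), which can act on the Krt18 gene, and the epithelial factor Grhl2 (-0.25) did not pass. Srf, the CArG box factor, had log2 -0.70 (limma adjusted p = 0.0511). With the replicate block 15 of the 24 passed, 10 lower and 5 higher, beside 23.8% of all tested genes. The higher ones included Klf5 (log2 0.63, other probe sets 0.16 and 1.05) and Elf3 (0.60).

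Of 14 tested genes of epithelial and mesenchymal state, 3 fell, 0 rose and 11 did not pass, with a median of log2 -0.30. Those that fell were the mesenchymal cadherin gene Cdh2 (410.2 ± 307 to 76.2 ± 35.6, log2 -2.19, SE 0.48, limma adjusted p = 0.0144) and the repressor genes Twist2 (64.1 ± 17.6 to 15.0 ± 9.97, log2 -1.79, SE 0.38, limma adjusted p = 0.0122) and Snai1 (log2 -0.99, SE 0.24, limma adjusted p = 0.0205). Snai1 did not pass without control replicate 1 (adjusted p = 0.0755), Pcl2 shRNA replicate 1 (0.0708) or Pcl2 shRNA replicate 3 (0.0546). The epithelial genes Cdh1 (log2 -0.38, 3667 ± 117 and 2817 ± 239.9) and Epcam (log2 0.01) did not pass. Nor did the mesenchymal repressor gene Zeb1 (log2 0.46), the fibronectin gene Fn1 (0.25, another probe set 0.77) and Tcf4 (0.22, other probe sets 0.13 to 0.63), all with a higher sign. With the replicate block 5 were lower, beside 13.8% of all tested genes, and they included Cdh1 (limma adjusted p = 0.0471) and the epithelial splicing factor gene Esrp1 (log2 -0.59, limma adjusted p = 0.0137).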

How the data were processed

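Total RNA of 6 samples was hybridised to Mouse Genome 430 2.0 arrays. Per the labels, the authors computed an intensity per probe set with GCOS 1.4 (MAS5 signal, linear scale). With 2% trimmed at both ends, every array had a mean of 150.001, so that scaling was kept. The genome build is not given in the sources used here. Of 45101 probe sets, 34945 named 1 gene, 932 several and 9160 none in GEO's platform annotation, and 64 were controls. Symbols came from the GRCm38.p6 gene table, which held the genes of 34741 of the 34945.

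Signals were taken as log2(signal + 7). Probe sets with a mean at or above the 40th percentile (signal 20.2) were kept, and the brightest of each gene was tested, 13094 genes in all, with limma 3.58.1 in R 4.3.3 (lmFit, eBayes with intensity trend, two-sided, Benjamini-Hochberg). Other probe sets of the 8 genes took their SE from a fit of all 23185 kept probe sets. The 95% intervals are those of limma. A gene at or below background on every array of a group has only a bound, its control geometric mean over the background signal. The procedure was tested on simulated data. No sample columns were left out.

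The members, lists, alternatives and rules were chosen with earlier results of these data known. Named were the 8 genes, Mtf2, up to 4 genes per list with the smallest p among those that passed (the 2 brightest where none did, all where 5 or fewer did), and the 3 genes nearest to Krt8, Krt18 and Krt19. Named after their values were seen were Krt6a, Plec, Jup, Pkp2, Dsg2, Ina, Nefh, Lbr, Lmnb2, Emd, Zmpste24, Ets2, Grhl2, Srf, Klf5, Elf3, Jund, Fosl1, Cdh1, Epcam, Prph, Gfap, Zeb1, Fn1, Tcf4, Esrp1, Tfap2c, Ttn, Col1a1, Hnf4a, Gata6, Gata4, Foxa2, Amn, and markers at background.

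Deviations from the group means correlated at 0.25 to 0.40 between samples of the same number and at -0.38 to -0.00 otherwise. The labels do not say what the number marks, so the pairing rests on the data alone.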

Additional observations from a re-analysis of the deposited data

How the results depend on the processing

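Each result was recomputed under 20 alternatives, 6 of which leave out 1 array. Krt8, Krt18 and Krt19 passed, lower, in all 20 (log2 -4.76 to -4.32, -4.89 to -4.30 and -3.89 to -3.13), and Lmnb1 passed in none. Krt7 also lost its call without a signal filter (limma adjusted p = 0.0518), and Lmna passed with median centring, the filter at the 60th percentile, the replicate block and array weights. The number of the 8 genes that passed was 4 and became 7 with the replicate block, and was 3 to 5 without 1 array. Over all genes 1651 passed, 3111 with the replicate block and 979 to 1598 without 1 array, the lowest without Pcl2 shRNA replicate 2. Of the other keratins 1 passed with median centring, the mean of probe sets, no cross-hybridising probe sets or signals floored at background, 2 with the block or array weights, and 0 to 1 without 1 array, the 1 without Pcl2 shRNA replicate 2. The chaperone list gave 6 with the block and 5 with array weights. The lamina list gave 1 with median centring or without the eBayes trend, 5 with the block and 1 to 3 without 1 array (3 without control replicate 3, and 1 without control replicate 1 or 2 or Pcl2 shRNA replicate 2 or 3). The regulator list gave 7 with the mean of probe sets, 15 with the block and 8 with array weights, and the epithelial and mesenchymal list 1 with the filter at the 60th percentile, where fewer genes are tested, and 5 with the block. Without 1 array Thy1 ranged from log2 -0.39 to 0.34 (without control replicate 1), and Krt81 from -0.036 to 0.23, turning sign without control replicate 2 (-0.029) or Pcl2 shRNA replicate 2 (-0.036). Of 973 values of 49 named genes, 926 kept their direction and call, 33 lost it, 11 gained it and 3 turned sign; the causes were not tested. Nefm, Twist2, Snai1, Cdx2, Efemp1 and Bmp1 had no value with the filter at the 60th percentile, which removed them. Signals near background limit Krt7 and Des. They also limit Cryab, Dsc2, Twist2, Col1a1, Fosl1 and Bmp1, which had shRNA arrays both above and below background.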
